A study of Homo sapiens with 9 samples.

Results

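The 3 nuclear long noncoding RNAs NEAT1, MALAT1 and KCNQ1OT1 and the genes of 5 paraspeckle proteins, SFPQ, NONO, PSPC1, RBM14 and TARDBP, were followed through EVI1 knockdown in HNT34 cells. These 8 genes were chosen by name out of 16612 genes in the deposited count table, with their differences between these same libraries already known. Their levels and fold changes are therefore a description, without a test. All 8 were among the 16312 genes that passed the filter on low counts. HNT34, a human AML line, carries a 3q rearrangement and expresses EVI1, the transcription factor encoded by MECOM, at a high level. The cells carried a lentiviral vector with RFP and puromycin resistance that expressed a control shRNA without a target (NT) or one of the shRNAs against EVI1 named sh#16 and sh#87, and RNA was taken 3 days after selection. Each group has 3 libraries, so all 9 share the vector and the selection and differ in the shRNA. The sh#87 libraries, grouped by their titles, bear the shRNA number 18 in another label field. Both knockdown groups were compared with the same NT libraries, so their fold changes are not independent of each other.

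Paraspeckles are bodies in the nucleus that form around NEAT1. The short and long NEAT1 transcripts start at the same site. Only the long one builds the body, and it does so together with SFPQ, NONO and RBM14. PSPC1 is another component, and TARDBP encodes TDP-43, an RNA-binding protein that acts on the choice between the NEAT1 transcripts. MALAT1, transcribed from the neighbouring gene, sits in nuclear speckles, and KCNQ1OT1 is an imprinted antisense RNA that silences genes around it on the paternal allele. The 3′ ends of MALAT1 and of long NEAT1 are cut by RNase P, end in a triple helix and carry no poly(A) tail, whereas short NEAT1 is polyadenylated.

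As the libraries were made from polyA-selected RNA, the sequences shown here are the A-rich stretches that these RNAs hold inside or at their 3′ ends. They were read from GENCODE 44 transcripts mapped to GRCh37. The first set shows the longest run of A in each transcript, in capitals, with 12 bases on either side.
NEAT1-201, short: gctgaaagttacAAAAAtgcttcatggac
NEAT1-202, long: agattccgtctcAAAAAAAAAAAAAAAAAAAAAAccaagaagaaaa
MALAT1-202: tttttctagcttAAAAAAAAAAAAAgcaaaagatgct
KCNQ1OT1-201: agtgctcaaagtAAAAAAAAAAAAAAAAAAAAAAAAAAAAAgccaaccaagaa
The long NEAT1 transcript of 22743 bases held 6 runs of at least 8 A, the longest of 22, and the short transcript of 3441 bases held 0, with a longest run of 5. KCNQ1OT1-201 spans 91667 bases and held 33 such runs, the longest of 29. MALAT1-202, of 10434 bases, held 2, the longest of 13. In the protein genes there were at most 1 such run per transcript, and 0 in TARDBP.

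The second set shows the A-rich tract, in capitals, that ends the long NEAT1 transcript and its counterpart in MALAT1.
NEAT1-202, last bases: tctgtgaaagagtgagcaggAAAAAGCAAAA
MALAT1-202, inner tract: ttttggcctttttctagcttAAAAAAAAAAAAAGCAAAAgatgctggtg
In NEAT1-202 the tract is the end of the annotated transcript. In MALAT1-202 another 1957 bases are annotated after it. Gene counts do not separate the short from the long NEAT1 transcript, and how far A-rich stretches inside these RNAs contributed to their capture was not tested.

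The targeted gene was lower in every knockdown library. MECOM was at 571, 504 and 441 CPM (counts scaled to the TMM-adjusted library size) in NT, 145, 143 and 145 CPM in sh#16 and 109, 107 and 106 CPM in sh#87 libraries. The libraries held from 17096170 to 43502389 counts. NT libraries differed more among themselves, with a biological coefficient of variation of 25.0%, than sh#16 (3.77%) or sh#87 libraries (6.96%). Mitochondrially encoded genes took 15.9%, 11.5% and 4.69% of the counts in NT replicates 1, 2 and 3, at most 2.88% in an sh#16 library and 4.62% to 5.97% in sh#87. NT replicate 3 was the NT library nearest to the knockdown libraries in this share and in the levels of SFPQ, NONO, PSPC1, RBM14 and TARDBP given below, and the NT library lowest in NEAT1, MALAT1 and KCNQ1OT1. The part of these library differences in the results was not tested. Of 6 myeloid and AML markers tested, PTPRC, CD34, KIT and SPI1 fell with each shRNA (edgeR, adjusted p from 3.44e-09 to 1.64e-06), CD34 from 731 CPM in NT to 42.4 CPM with sh#87, and with sh#87 CD33 and ANPEP fell as well, CD33 with a call that was lost without NT replicate 2 or any single knockdown library. MPO, a defining myeloid marker, was not among the genes used here. Of 5 markers of other cell types, COL1A1 was at 0.116 CPM in NT and at 26.4 and 29.3 CPM in sh#16 and sh#87, and PECAM1, KRT8 and CD3E fell with each shRNA. In bulk RNA, fewer cells of a type and less RNA per cell cannot be told apart.

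NEAT1 lies on chromosome 11 from 65422798 to 65445540 (RefSeq, GRCh38.p14), where it is a lncRNA gene. Its level was 644, 648 and 618 CPM in the NT libraries, 5969, 5896 and 6008 CPM in sh#16 and 15556, 16632 and 16266 CPM in sh#87. The groups did not overlap, and NEAT1 was the steadiest of the 8 genes in NT, with a coefficient of variation of 2.53%. The log2 fold change was 3.23 (SE 0.09) with sh#16 and 4.66 (SE 0.10) with sh#87, which is 9.35-fold and 25.4-fold higher than NT. Between the shRNAs NEAT1 was 2.71-fold higher with sh#87. By mean CPM it ranked 167th of 16312 genes in NT, 8th with sh#16 and 4th with sh#87. Its fold change with sh#87 was reached or exceeded by 285 of the 16312 genes, NEAT1 included.

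MALAT1, a lncRNA gene from 65497738 to 65506516, starts 52198 bases beyond the end of NEAT1. It was at 9540, 7590 and 5615 CPM in NT, 20412, 20435 and 20815 CPM in sh#16 and 42503, 39886 and 40918 CPM in sh#87. Again no library of one group reached the range of another, although the highest NT library had 1.70 times the level of the lowest. The log2 fold change was 1.44 (SE 0.18) with sh#16 and 2.44 (SE 0.19) with sh#87. In fold terms MALAT1 was 2.71 and 5.42 times the NT level. It ranked 13th by mean CPM in NT and was the most abundant of all genes with sh#87. The ratio of MALAT1 to NEAT1 counts was 9.08 to 14.8 in NT, 3.42 to 3.47 in sh#16 and 2.40 to 2.73 in sh#87 libraries. NEAT1 thus differed from NT by more than its neighbour with either shRNA. Together both RNAs took between 6230 and 10200 CPM in NT and between 56500 and 58100 CPM in sh#87 libraries. Removing them before normalization left the log2 fold changes of the other 6 genes within the spread between replicates.

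KCNQ1OT1 lies on the same chromosome, from 2608328 to 2699994, inside KCNQ1 and on the opposite strand. Its level was 28.2, 29.3 and 23.3 CPM in NT, 130, 127 and 126 CPM in sh#16 and 245, 246 and 249 CPM in sh#87. The 3 groups were apart here as well. The log2 fold change was 2.24 (SE 0.09) with sh#16 and 3.20 (SE 0.09) with sh#87, or 4.74-fold and 9.16-fold.

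All 3 RNAs were thus lowest in NT and highest with sh#87, with no overlap between groups, an order that 17.6% of all genes showed. Per kb of annotated transcript, MALAT1 was the highest of the 8 genes in NT at 727 CPM per kb and reached 3941 CPM per kb with sh#87. This scaling takes account of length only, and differences between the genes in capture by the polyA selection were not tested. For NEAT1 the value depends on the transcript. Divided by the length of the long one it was 28.0, 262 and 710 CPM per kb in NT, sh#16 and sh#87, and by that of the short one 185, 1732 and 4695 CPM per kb. KCNQ1OT1 stayed the lowest, at 0.294 CPM per kb in NT and 2.69 with sh#87.

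**Figure D1:**
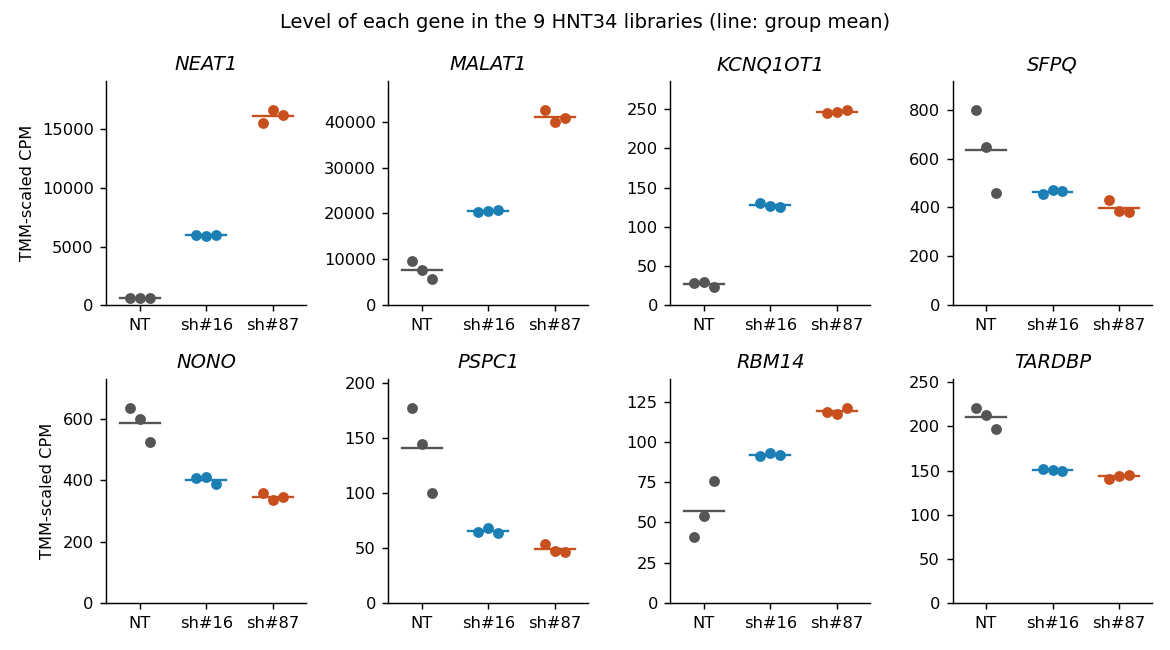
Level of NEAT1, MALAT1, KCNQ1OT1 and the 5 paraspeckle protein genes in TMM-scaled CPM (vertical axes, each from 0 on its own linear scale) in the NT, sh#16 and sh#87 libraries (horizontal axes). Points are single libraries and lines are means of 3 libraries: the 3 RNAs and RBM14 step up from NT to sh#87, and the other protein genes are lower in the knockdown groups, with SFPQ overlapping NT.

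The protein genes were read against NEAT1. SFPQ, NONO and PSPC1 encode the related DBHS proteins, which bind RNA as dimers. SFPQ (chromosome 1, 35176380 to 35193145) was at 797, 648 and 457 CPM in NT, 456, 471 and 468 CPM in sh#16 and 429, 385 and 381 CPM in sh#87. NT replicate 3 lay inside the range of the sh#16 libraries, so NT and sh#16 overlapped, whereas all sh#87 libraries were below NT and sh#16. The log2 fold change was -0.45 (SE 0.17) with sh#16 and -0.67 (SE 0.17) with sh#87. With sh#16 it was -0.66 when NT replicate 3 was left out and -0.26 when NT replicate 1 was.

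NONO, on chromosome X from 71283635 to 71301168, was at 636, 601 and 526 CPM in NT, 408, 410 and 387 CPM in sh#16 and 358, 336 and 346 CPM in sh#87. Each knockdown library was below each NT library, and sh#87 was below sh#16. The level was 68.3% of NT with sh#16 and 59.0% with sh#87 (log2 fold changes of -0.55 and -0.76, SE 0.08 each). The pseudogene NONOP2 is counted separately, at 0.602 to 2.25 CPM, and reads that NONO and its copies share are uncertain.

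PSPC1 (chromosome 13, 19671205 to 19782945) was the protein gene farthest below NT. It was at 177, 144 and 100 CPM in NT, 64.7, 67.7 and 63.4 CPM in sh#16 and 53.4, 47.5 and 46.0 CPM in sh#87, again in 3 ranges that did not overlap. The level was 46.5% of NT with sh#16 and 34.9% with sh#87 (log2 fold changes of -1.11, SE 0.17, and -1.52, SE 0.18). PSPC1 was also lower relative to its partner NONO, with a ratio of counts of 0.190 to 0.278 in NT, 0.159 to 0.165 in sh#16 and 0.133 to 0.149 in sh#87.

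TARDBP, on chromosome 1 from 11012654 to 11030528, was at 221, 212 and 197 CPM in NT, 152, 151 and 149 CPM in sh#16 and 141, 144 and 145 CPM in sh#87. Knockdown libraries were all below NT, and the shRNA groups lay close together, 4.32 CPM apart at the nearest libraries. The level was 71.7% of NT with sh#16 and 68.2% with sh#87 (log2 fold changes of -0.48 and -0.55, SE 0.06 each).

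RBM14, an RNA-binding coactivator needed for paraspeckle assembly, was the exception among the protein genes. It lies on chromosome 11 from 66616630 to 66629934, 1.19 Mb from the start of NEAT1. RBM14 was at 40.7, 54.2 and 75.9 CPM in NT, 91.4, 93.0 and 91.8 CPM in sh#16 and 119, 118 and 121 CPM in sh#87. Its groups did not overlap and stood in the order of NEAT1. It was 1.61-fold and 2.09-fold higher with sh#16 and sh#87 (log2 fold changes of 0.69 and 1.06, SE 0.18 each). Without NT replicate 1 the log2 fold change with sh#16 was 0.48, and without NT replicate 3 it was 0.93. The table also holds RBM14-RBM4, a readthrough gene that shares RBM14 sequence, at 4.08 to 9.11 CPM in NT, 13.3 to 14.3 CPM in sh#16 and 22.2 to 26.4 CPM in sh#87, so reads could be split between both entries.

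**Figure D2:**
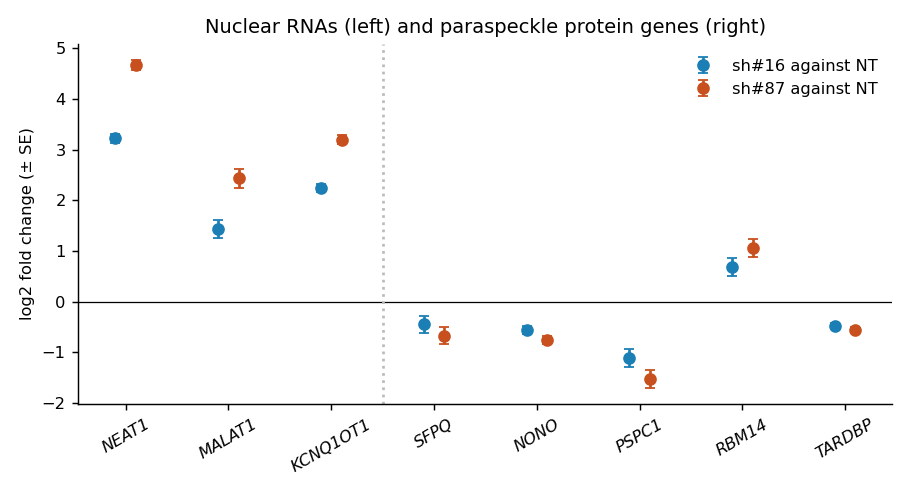
Log2 fold change against NT (vertical axis) of the nuclear RNAs, left of the dotted line, and of the paraspeckle protein genes, right of it. Points are edgeR estimates from 3 libraries per group with bars of 1 SE, for sh#16 and sh#87: NEAT1 reaches 4.66, RBM14 reaches 1.06 and the other 4 protein genes lie between -0.45 and -1.52.

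Of the 5 protein genes, only RBM14 thus shared the direction of NEAT1, and 4 were lower. Counting all 8 genes, 4 were higher in every knockdown library than in every NT library, against a background of 33.9% of all genes, and 3 were lower in every one, against 32.1%. The descending order without overlap from NT to sh#87 was shown by NONO, PSPC1 and TARDBP and by 17.7% of all genes. The median log2 fold change of the protein genes was -0.48 with sh#16 and -0.67 with sh#87, beside 0.04 and 0.04 for all genes tested. RBM14 moved by 21.4% and 22.8% of the log2 fold change of NEAT1 with the respective shRNA, and KCNQ1OT1 by 69.6% and 68.5%.

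Likeness to NEAT1 was also measured as the root mean square (RMS) difference between the log2 CPM values of both genes, each centred on its mean over the 9 libraries, where 0 is the same pattern at the same size. KCNQ1OT1 was at 0.61, which 1.43% of the other 16311 genes matched or undercut, and MALAT1 was at 0.96 (5.98%). RBM14 followed at 1.51 (23.1%). The remaining protein genes were at 2.19 for TARDBP, 2.22 for SFPQ, 2.27 for NONO and 2.58 for PSPC1, with 67.7% to 87.0% of genes as near or nearer. Among genes with a mean of at least 5 CPM over the 9 libraries, the 5 nearest to NEAT1 were MOK (0.10), FAM227A (0.19), SCUBE1 (0.21), RPL7P7 (0.22) and ANKRD24 (0.25). They met this minimum only through the knockdown libraries, as their NT means were low, from 0.405 CPM for ANKRD24 to 1.61 CPM for FAM227A. MOK, which encodes a protein kinase, was at 1.18, 11.7 and 29.6 CPM in NT, sh#16 and sh#87. RPL7P7 is a ribosomal protein pseudogene, so its counts are uncertain. Nearest to MALAT1 were DDX50P1, RP11-52A20.2, RP11-553D4.3, RP11-325F22.2 and UBE2Q2P2, at 0.11 to 0.13. Of these, DDX50P1, RP11-52A20.2 and UBE2Q2P2 were below 5 CPM in NT, at means of 2.46, 1.66 and 2.55 CPM.

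Set against SFPQ, NEAT1 had 0.807 to 1.35 times its CPM in NT, 12.5 to 13.1 times in sh#16 and 36.2 to 43.2 times in sh#87 libraries. The 5 protein genes together took 1360 to 1870 CPM in NT, 1160 to 1190 CPM in sh#16 and 1030 to 1100 CPM in sh#87.

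Other paraspeckle protein genes were mostly lower as well. Of these, HNRNPK, DAZAP1, HNRNPH3 and SMARCA4 encode proteins needed for intact paraspeckles, and these 4 fell with each shRNA (edgeR quasi-likelihood test, adjusted p of at most 0.01 over all genes). HNRNPK, which favours the long NEAT1 transcript, fell from 669 ± 22.8 CPM (SD, n = 3) in NT to 379 with sh#16 and 233 with sh#87 (log2 fold changes of -0.82 and -1.52). HNRNPH3 fell furthest, from 216 CPM to 59.5 and 50.8 CPM (-1.86 and -2.09, edgeR adjusted p = 2.49e-05 and 8.84e-06). DAZAP1 fell by 0.87 and 1.01 on the log2 scale. SMARCA4, a chromatin remodelling ATPase, fell by 0.79 and 0.80.

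With further components added, 32 genes were tested. With sh#16, 24 of them fell and 3 rose, beside 30.2% and 29.8% of all genes. With sh#87, 25 fell and 4 rose, beside 33.6% and 34.3%. The median log2 fold change of the 32 genes was -0.82 and -1.04. Those with the largest changes, besides HNRNPH3, were PCED1A (-2.36 and -1.93), RBM3, an RNA-binding protein known as a cold-shock protein (-1.59 and -2.04), RBMX, an hnRNP (-1.48 and -2.01), and UBAP2L (-1.58 and -1.87). The genes that rose with each shRNA, named after their values were seen, were AHDC1, AKAP8L and SS18L1. With sh#16 the call of AHDC1 was lost without NT replicate 2 or any single sh#16 library, and that of AKAP8L without NT replicate 1, NT replicate 2, sh#16 replicate 2 or sh#16 replicate 3. ZNF335 passed with sh#87 but not with sh#16, while its difference between the shRNAs did not pass (edgeR adjusted p = 0.0240). Its libraries were at 21.3 to 23.7 CPM with sh#16 and 36.1 to 37.6 CPM with sh#87, which did not overlap. That test used 1 estimate of the spread over all groups, including NT at 13.2 to 25.3 CPM. SS18L1, which encodes the chromatin regulator CREST, was at 20.8, 38.6 and 47.3 CPM in NT, sh#16 and sh#87. RUNX3 and FAM98A passed the test with neither shRNA, with log2 fold changes between -0.24 and 0.09.

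**Figure D3:**
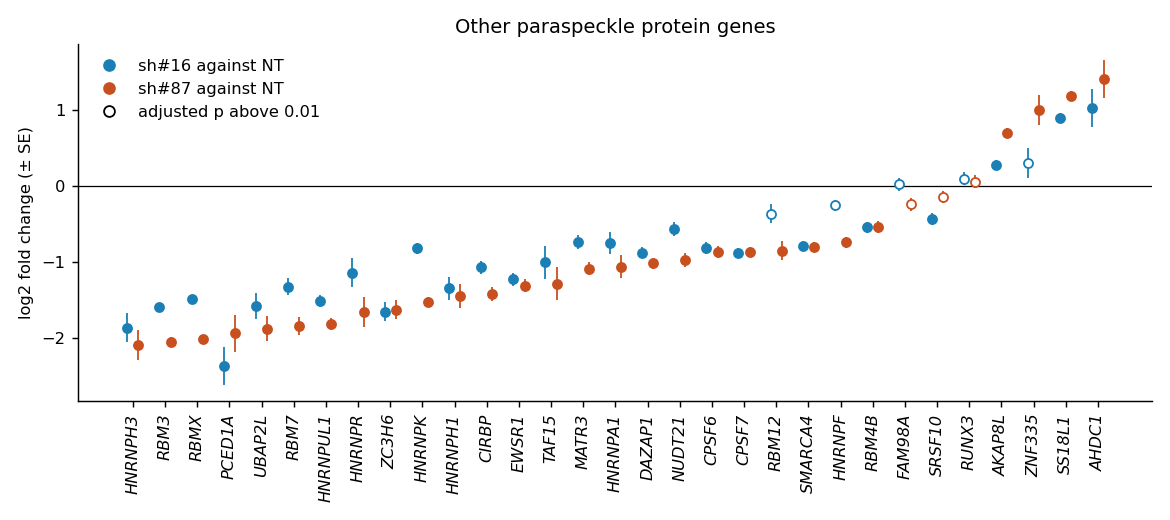
Log2 fold change against NT (vertical axis) of 31 other paraspeckle protein genes (horizontal axis), in the order of their value with sh#87. Points are edgeR estimates with bars of 1 SE and open points have an adjusted p above 0.01: of the genes shown, 24 fell and 4 rose with sh#87.

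Between the shRNAs, 2 of these 32 genes, AKAP8L and SS18L1, were higher and 5, HNRNPK, HNRNPF, NUDT21, RBM3 and RBMX, were lower with sh#87 (edgeR, adjusted p of at most 0.01), beside 8.29% and 9.42% of all genes. HNRNPK differed most, by -0.70 (edgeR adjusted p = 2.23e-04). NUDT21, a cleavage factor that acts at the poly(A) site of short NEAT1, was at 312, 210 and 159 CPM in NT, sh#16 and sh#87. Together the number of called genes was 7. It was 14 without NT replicate 1, 17 without NT replicate 3, 4 without sh#16 replicate 1 or replicate 3, and 13 with DESeq2.

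Genes that act on the 3′ ends of MALAT1 and long NEAT1 were called about as often as genes in general. Of 11 tested, RNase P subunits and ELAC2 (RNase Z) and METTL16, which binds the MALAT1 triple helix, 3 rose and 3 fell with each shRNA by edgeR, beside 29.8% and 30.2% of all genes with sh#16 and 34.3% and 33.6% with sh#87. The RNase P protein genes RPP38 and RPP40 fell, RPP40 from 13.2 to 6.53 and 4.02 CPM. POP5 and POP7 rose, POP7 from 13.6 to 27.3 and 23.5 CPM. POP1, the largest protein subunit, rose by 0.55 and 0.49 on the log2 scale, and METTL16 fell by 0.52 and 0.67, both named after their values were seen. ELAC2 had log2 fold changes of -0.19 and -0.31 that did not pass the test. The median log2 fold change of the 11 genes was -0.08 with sh#16 and -0.10 with sh#87.

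Nuclear speckles, where MALAT1 resides, were represented by 13 genes. With sh#16, 8 fell and 0 rose, and with sh#87, 6 fell and 1, NKTR, named after its values were seen, rose (edgeR, adjusted p of at most 0.01). The shares of all genes that fell were 30.2% and 33.6%, and those that rose were 29.8% and 34.3%. PNISR fell furthest, from 206 CPM in NT to 39.3 and 34.1 CPM, followed by PNN, SRRM1 and the splicing factor gene SRSF1. The call of PNN with sh#87 (125 CPM, against 249 CPM in NT) was lost without NT replicate 2 and without each single knockdown library. SON, which encodes the scaffold protein of speckles, was at 539, 502 and 506 CPM, with no call.

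Most of the other long noncoding RNAs listed went the other way. Of 9 tested, 7 fell and 0 rose with each shRNA, beside 30.2% and 33.6% of all genes that fell with sh#16 and sh#87 and 29.8% and 34.3% that rose. FTX and MIAT were not called. TUG1 was at 565, 265 and 273 CPM in NT, sh#16 and sh#87. OIP5-AS1 fell from 439 to 210 and 170 CPM. FIRRE fell by 1.34 and 1.40 and JPX by 1.46 and 1.08 on the log2 scale.

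Around NEAT1 and MALAT1 on chromosome 11, 12 neighbouring genes were tested. With sh#16, 6 rose and 2 fell, and with sh#87, 8 rose and 2 fell (edgeR, adjusted p of at most 0.01). Of all genes, 29.8% and 34.3% rose and 30.2% and 33.6% fell with the respective shRNA. The neighbours had medians of 0.74 and 1.13 on the log2 scale. FRMD8, whose end lies 9273 bases before NEAT1, was at 18.9, 30.2 and 44.3 CPM in NT, 100, 104 and 105 CPM in sh#16 and 130, 138 and 129 CPM in sh#87. Its log2 fold changes were 1.73 and 2.08 (SE 0.24 each, edgeR adjusted p = 1.84e-04 and 4.43e-05), so the gene next to NEAT1 rose as well. Farther out, ZNRD2 rose from 4.97 to 19.7 and 25.8 CPM, FAM89B from 11.2 to 34.7 and 37.7 CPM and POLA2, a DNA polymerase alpha subunit gene, from 37.9 to 66.9 and 84.3 CPM. CDC42EP2 and TIGD3 rose from below 1 CPM to 4.12 and 1.59 CPM with sh#16. LTBP3, a TGF-beta binding protein gene, fell from 33.1 to 8.41 and 9.44 CPM, and DPF2 fell from 96.7 to 57.7 and 56.1 CPM. SLC25A45 passed with neither shRNA (-0.25 and -0.07). EHBP1L1 and MAP3K11 rose with sh#87, from 97.5 to 151 CPM and from 58.9 to 126 CPM, and the call of MAP3K11 was lost without NT replicate 2 and without each single sh#87 library.

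Around KCNQ1OT1, 11 genes were tested, of which 1 rose and 3 fell with sh#16 and 2 rose and 4 fell with sh#87 (edgeR). These counts are near the shares of all genes that fell, 30.2% and 33.6%, and below those that rose, 29.8% and 34.3%. KCNQ1, the potassium channel gene on the opposite strand, was at 9.33 to 15.9 CPM in NT, 7.46 to 9.09 CPM in sh#16 and 6.66 to 8.62 CPM in sh#87. The kit marks the strand, but whether the counting used it is not given in the sources used here, so reads of KCNQ1 and KCNQ1OT1 may be mixed. Its log2 fold changes were -0.55 and -0.70, of which that with sh#87 passed the test and lost it under most alternatives, among them each single library left out except NT replicate 1. Of the imprinted genes that KCNQ1OT1 is known to silence, SLC22A18 rose from 3.76 to 10.1 and 14.0 CPM, and its call with sh#16 was lost without NT replicate 2 or sh#16 replicate 2. CDKN1C, a CDK inhibitor gene, stayed below 1 CPM in the group means (0.303, 0.704 and 0.864 CPM) and was called with sh#87, except without NT replicate 2, sh#87 replicate 2 or sh#87 replicate 3. PHLDA2 had log2 fold changes of -0.33 and -0.79 that did not pass. SLC22A18AS fell from 20 to 28 counts per NT library to at most 5 counts in a knockdown library. CARS1 fell by 1.69 and 1.31 on the log2 scale. NAP1L4 had log2 fold changes of 0.06 and -0.28 and TSPAN32 of -1.13 and -0.93, with calls for sh#87 and sh#16, respectively, that most single libraries left out removed. OSBPL5, CD81 and TSSC4 passed with neither shRNA, with log2 fold changes between -0.38 and 1.16.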

How the data were processed

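The deposited table holds the authors' estimated counts for each gene symbol in 9 HNT34 libraries, without normalization. The file header names salmon output, whereas the methods name STAR and FastQC v1.3 with GRCh38, and the labels name the same build. The libraries were polyA-selected, strand-specific and sequenced as single reads. All values were whole, so none was rounded, and the empty lines between the rows of the table were dropped. Counts were normalized by TMM, filtered with filterByExpr and tested in 1 fit of all groups with edgeR 4.0.16 in R 4.3.3 (quasi-likelihood test, Benjamini-Hochberg adjustment over 16312 genes, called at an adjusted p of at most 0.01). Depth ranged from 17096170 to 43502389 counts. The labels do not say that libraries came from separate cultures, so p-values measure only the spread between libraries. That spread was estimated over all groups together, although NT libraries differed more among themselves than knockdown libraries. The p-values and SEs are therefore not specific to the groups compared. The likeness measure used log2 CPM with a prior count of 2. The model was tested on simulated data.

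The 8 genes and the gene lists were chosen with earlier results of these data known. Named in the text are the 8 genes, MECOM, all tested genes of the core paraspeckle list and of both neighbourhoods. Of each other list, at most the 4 with the largest mean log2 fold change called in the same direction with each shRNA are named. The 5 genes nearest to NEAT1 and to MALAT1 are named too, and NONOP2 and RBM14-RBM4 because they can share reads. Other genes of the lists were named once values were known, some of them as not called. The called ones include CD3E, CD33, ANPEP, ZNF335, HNRNPF and NUDT21, which are not marked so where they appear. Some genes of the lists are counted but not reported here by name. Positions came from RefSeq (GRCh38.p14) and transcripts from GENCODE 44. Alternatives were RLE and upper-quartile normalization, the removal of mitochondrial and small structural RNA genes, no filter, a mean of at least 10 counts, DESeq2 1.42.0, limma-voom (limma 3.58.1), a replicate block, each library left out and other thresholds; the removal of NEAT1 and MALAT1 was added after seeing the data.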

Additional observations from a re-analysis of the deposited data

Results flagged for a closer look

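From all genes tested, 71 outside the 8 were looked at here, most of them named above. For 19 of these the libraries of sh#87 and sh#16 differed when tested directly (edgeR, adjusted p at or below 0.01). Of all genes tested, 8.29% were higher and 9.42% lower with sh#87. Among the 19, AKAP8L, SS18L1, HNRNPF, NUDT21, NKTR and ANPEP had been picked once their values were known. The count is therefore not a result about these genes as a set. The 71 leave out the genes nearest to NEAT1 and MALAT1 and most genes only counted in their lists. Counting all 13 speckle genes, 2 were higher with sh#87 and 0 lower. Of the 9 other long noncoding RNAs, 1 was higher and 1 lower, beside 8.29% and 9.42% of all genes. Among paraspeckle genes the log2 difference of sh#87 against sh#16 was -0.70 for HNRNPK (edgeR adjusted p = 2.23e-04), -0.53 for RBMX (3.38e-04) and -0.46 for RBM3 (5.34e-04), all of which fell with each shRNA. It was -0.48 for HNRNPF (edgeR adjusted p = 0.00142) and -0.40 for NUDT21 (0.00942), and AKAP8L and SS18L1 went the other way, by 0.42 (0.00161) and 0.29 (0.00868). The speckle gene NKTR differed by 0.67 (edgeR adjusted p = 0.00368). RPP40, an RNase P subunit gene, differed by -0.70 (edgeR adjusted p = 0.00250). Of the neighbours of NEAT1, EHBP1L1 differed by 0.74 (edgeR adjusted p = 4.06e-04), with log2 fold changes against NT of -0.10 with sh#16 and 0.64 with sh#87. Of the neighbours of KCNQ1OT1, CARS1 differed by 0.38 (edgeR adjusted p = 0.00494) and NAP1L4 by -0.34 (0.00842). The myeloid markers CD34, SPI1, PTPRC and KIT differed by -1.46, -0.93, -0.51 and -0.31 (edgeR adjusted p from 1.38e-05 to 0.00530), PECAM1 by -0.84 (5.16e-05) and ANPEP by -1.03 (3.67e-04). MECOM differed by -0.43 (edgeR adjusted p = 0.00661). The calls of MECOM, CARS1, NAP1L4, KIT, NUDT21 and SS18L1 were lost without NT replicate 2 and without each single knockdown library, that of NKTR without each single knockdown library, that of AKAP8L without sh#16 replicate 1 or 3, and that of RPP40 without each single knockdown library except sh#87 replicate 3.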

How the results depend on the processing

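The log2 fold changes of the 8 genes kept their direction under every alternative run. Of 426 values, 421 moved by less than 1 SD between replicates. The others were NEAT1 with upper-quartile normalization (3.33 with sh#16 and 4.78 with sh#87) and without NT replicate 3 (3.18 with sh#16), and TARDBP with upper-quartile normalization (-0.38 and -0.43). That normalization moved the median of all genes from 0.04 to 0.14 with sh#16 and from 0.04 to 0.15 with sh#87. Without mitochondrial and small structural RNA genes all 24 values stayed within 1 SD. By construction, a minimum absolute log2 fold change of 1 left 5551 genes called for sh#16, 7138 for sh#87 and 697 between the shRNAs, and 14, 19 and 0 of the 32 other paraspeckle genes. At an adjusted p of at most 0.05, 5498 genes and 15 of the 32 were called between the shRNAs, against 2890 and 7. DESeq2 called 13 of the 32 in this comparison, and the cause was not tested.

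With single libraries left out, 8200 to 11224 genes were called with sh#16, 9823 to 12164 with sh#87 and 1098 to 5326 between the shRNAs, and of the 32 genes 24 to 30, 29 to 30 and 4 to 17. Between the shRNAs the counts were 4631 without NT replicate 1, 5326 without NT replicate 3, 1198, 1098 and 1185 without sh#16 replicates 1, 2 and 3, and 1638, 1154 and 1237 without sh#87 replicates 1, 2 and 3. That comparison sets no NT library against another group, but NT libraries enter it through the estimate of the spread shared by all groups. With the replicate number as a block, 9105, 10439 and 1588 genes and 26, 29 and 5 of the 32 were called. The numbers do not pair the libraries, as same-numbered libraries deviated from their group means with correlations from -0.137 to 0.0826. Depth limits the genes below 1 CPM, such as CDKN1C.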
